A study of Mus musculus with 19 samples.

Results

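The genes described here are 10 immediate early genes, Fos, Fosb, Jun, Junb, Egr1, Egr3, Atf3, Ier2, Nr4a1 and Dusp1, followed through 19 RNA-seq libraries of mouse abdominal aorta. They were chosen by symbol, and all 10 were found among the 55414 genes of the count files. The aortas came from 3 groups, 5 control libraries, 7 libraries from mice irradiated 3 days before pump implantation (D-3 IR) and 7 from mice irradiated 1 day after it (D+1 IR). All mice were male Apoe-/- on a C57Bl/6J background, 8 to 10 weeks old at implantation, and all received angiotensin II (AngII) from a subcutaneous osmotic pump, the usual way to induce abdominal aortic aneurysm in these mice, so that no group was free of AngII. The irradiated mice received a single total-body dose of 1 Gy of X-rays under ketamine and xylazine, and the controls were given the same anesthetic without irradiation. The methods name both cervical dislocation under isoflurane and terminal ketamine and xylazine, followed by blood and heart collection and rapid freezing of a piece of aorta. Neither the day of AngII at which the sequenced aortas were taken nor the time from death to freezing was given for each library. Libraries are named here by group and sample number, as in D-3 IR 13.

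Immediate early genes are transcribed within minutes of a stimulus, from factors that the cell already holds. Fos and Jun proteins pair to form AP-1, which with the Egr factors switches on later genes, while MAP kinases acting through serum response factor and CREB start the response and proteins such as Dusp1 end it. In the vessel wall these genes answer to AngII, stretch and injury, and they are also known to rise when a tissue is cut, warmed or kept waiting before its RNA is fixed.

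The promoters are shown first, as a description, and a link between their motifs and how the genes varied across the aortas was not tested. A RefSeq window (GRCm38.p6) was matched for 7 of the 10 genes, and motifs were searched on both strands in the 250 bases before the start. The core of the cAMP response element, TGACG, was found in 6 of the 7 (Fos, Fosb, Junb, Atf3, Nr4a1 and Dusp1), against 17.8% of all 32851 windows. The core of Atf3 lay 7 bases before the RefSeq start, within bases that are also annotated as Atf3 exon. The full element, TGACGTCA, which holds the core on both strands, was found in Dusp1 and in 1.55% of all windows. The EGR site GCGGGGGCG was found in Fosb and Nr4a1 (2.57% of all windows) and the TATA box TATAAA in Fos (12.4%). The CArG box, bound by serum response factor, and the AP-1 site TGANTCA were in 0 of the 7 windows, against 1.47% and 6.75% of all windows. Sites beyond these 250 bases were not searched, so their absence from the genes cannot be read from this. Egr1, Egr3 and Ier2 had no window and were not searched at all. The 4 promoters below are printed 5′ to 3′ up to the first annotated exon base, with the motifs in capitals: Fos (chr12:85473640-85473889, plus strand), Fosb (chr7:19310052-19310295, minus strand), Nr4a1 (chr15:101266596-101266845, plus strand) and Dusp1 (chr17:26508520-26508722, minus strand).
Fos: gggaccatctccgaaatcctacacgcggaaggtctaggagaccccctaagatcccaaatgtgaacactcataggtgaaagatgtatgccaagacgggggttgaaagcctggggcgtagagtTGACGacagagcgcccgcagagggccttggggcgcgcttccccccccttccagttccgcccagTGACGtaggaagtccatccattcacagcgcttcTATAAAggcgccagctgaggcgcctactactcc
Fosb: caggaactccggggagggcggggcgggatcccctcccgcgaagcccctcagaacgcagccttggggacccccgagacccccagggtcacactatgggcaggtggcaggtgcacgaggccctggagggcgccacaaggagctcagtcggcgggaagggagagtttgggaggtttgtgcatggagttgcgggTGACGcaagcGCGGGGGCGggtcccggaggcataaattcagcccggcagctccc
Nr4a1: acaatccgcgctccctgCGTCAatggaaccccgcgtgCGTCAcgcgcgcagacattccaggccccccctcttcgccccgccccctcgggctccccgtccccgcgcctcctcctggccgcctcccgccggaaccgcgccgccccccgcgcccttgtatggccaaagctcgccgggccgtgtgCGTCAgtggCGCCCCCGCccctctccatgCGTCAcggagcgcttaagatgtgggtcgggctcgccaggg
Dusp1: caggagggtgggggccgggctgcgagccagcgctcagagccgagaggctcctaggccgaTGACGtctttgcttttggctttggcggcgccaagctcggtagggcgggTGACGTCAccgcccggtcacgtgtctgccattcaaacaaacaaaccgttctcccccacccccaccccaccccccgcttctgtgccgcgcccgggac
Fos carried cores 129 and 66 bases before its start and the TATA box at 33. In Fosb the core at 60 lay next to the EGR site at 50, and in Nr4a1 the core at 69 lay next to the EGR site at 60, with other cores at 233, 213 and 40. Dusp1 held the full element at 143 and a further core at 191. These are matches of letters and not measured binding.

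Each library held 25839001 to 97083681 counts in genes, and 4.49% to 22.9% of the counts fell in genes of the mitochondrial genome. Levels are given as CPM, counts scaled to a common library total with the TMM factors of edgeR. All 8 smooth muscle marker genes were measured, and summed to 5492 to 29029 CPM in control, 9541 to 24482 CPM in D-3 IR and 1361 to 16413 in D+1 IR. The files of D+1 IR 1, 2 and 3 carry another series number (41) than all other files (61), so within D+1 IR this number and whatever these 3 libraries share cannot be told apart. The methods speak of 5 to 7 mice per group but no label ties a library to a mouse, and p-values measure the spread between these libraries. In bulk tissue, fewer cells expressing a gene and less of its RNA per cell cannot be told apart.

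Per kilobase of annotated exon, Dusp1 was the most abundant, with a median level of 44.3 CPM per kb over the 19 libraries. It was followed by Jun (36.0), Ier2 (33.7), Junb (29.5), Egr1 (18.9), Nr4a1 (15.9), Fos (14.2), Atf3 (6.26), Fosb (1.57) and Egr3 (0.946). The middle of this order was loose: Ier2 exceeded Junb in 11 of 19 libraries, Egr1 exceeded Nr4a1 in 8, and Nr4a1 exceeded Fos in 11. The ends were firmer, as Dusp1 exceeded Jun in 15 and Atf3 exceeded Fosb in 18 of 19. Exons of Jun, Junb and Dusp1 share bases with Junos, Prdx2 and Ergic1 on the opposite strand. The second strand held 49.9% to 50.1% of stranded counts, so the reads of such gene pairs cannot be told apart.

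**Figure D1:**
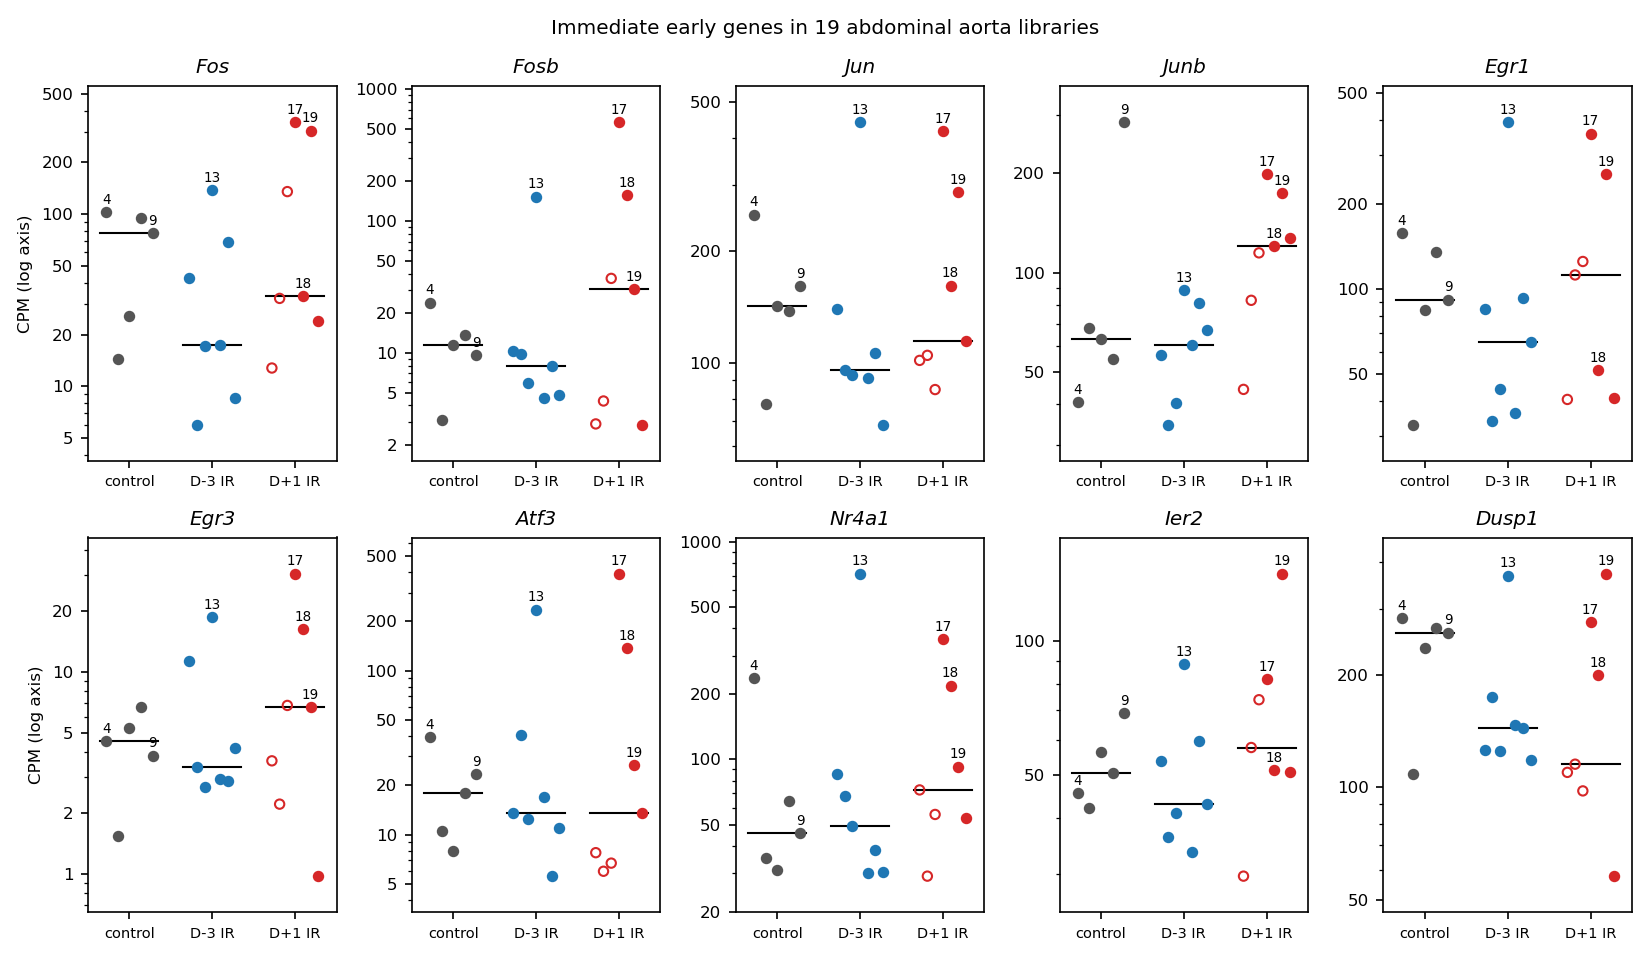
Level of each gene in CPM (log axis) by group, with 1 point per library, a bar at the group median and open circles for D+1 IR 1, 2 and 3. Sample numbers are written beside control 4 and 9, D-3 IR 13 and D+1 IR 17, 18 and 19. In all 10 panels D-3 IR 13 is the highest D-3 IR library, by the smallest gap in Junb, and the 3 groups overlap.

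Of the Fos family, Fos itself (chr12:85473890-85477273, plus strand), the inducible subunit of AP-1, was at 103 CPM in control 4, 14.4 in control 5, 25.7 in control 6, 95.5 in control 8 and 77.9 in control 9. Its lowest, median and highest levels were 6.00, 17.5 and 139 CPM in D-3 IR and 12.8, 33.4 and 342 CPM in D+1 IR. The controls were split between high and low libraries, most D-3 IR libraries were low, and the groups overlapped. Over control, the log2 fold change was -0.57 (SE 0.86) for D-3 IR and 1.00 (SE 0.89) for D+1 IR, with adjusted p of 1.00 and 0.733 (edgeR). Without D-3 IR 13 the first was -1.18 (SE 0.83), and without D+1 IR 17 the second was 0.52 (SE 0.88). Fosb (chr7:19302696-19310051, minus strand), which pairs with Jun proteins like Fos and outlasts it, was at 24.0, 3.10, 11.4, 13.7 and 9.62 CPM in control 4, 5, 6, 8 and 9. D-3 IR libraries ran from 4.54 to 153 CPM with a median of 7.91, and those of D+1 IR from 2.86 to 562 CPM with a median of 30.5. In D-3 IR, 6 of the 7 libraries lay within the control range and D-3 IR 13 far above it, whereas D+1 IR reached from below to far above the controls. Its log2 fold change for D+1 IR over control, 3.20 (SE 1.38), was the largest of the 10 genes, with an adjusted p of 0.644 (edgeR quasi-likelihood test; unadjusted 0.0316), and it was 1.65 (SE 1.15) without D+1 IR 17.

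Jun (chr4:95049034-95052222, minus strand), the partner of Fos in AP-1, was at 249, 77.5, 142, 138 and 160.3 CPM in control 4, 5, 6, 8 and 9. The lowest, median and highest levels were 68.4, 95.9 and 441 CPM in D-3 IR and 84.9, 115 and 418 CPM in D+1 IR. D-3 IR 13 and D+1 IR 17 held the top levels, and the groups overlapped. The log2 fold changes against control, -0.05 (SE 0.48) and 0.24 (SE 0.49), were smaller than their errors. Without D-3 IR 13 the first was -0.60 (SE 0.37), and without D+1 IR 17 the second was -0.11 (SE 0.46). Junb (chr8:84974484-84978718, minus strand), a weaker activator than Jun at the same sites, was at 40.5, 67.9, 62.7, 54.9 and 285 CPM in the same controls. Its lowest, median and highest levels were 34.6, 60.4 and 88.5 CPM in D-3 IR and 44.2, 120.2 and 199 CPM in D+1 IR. Control 9 was the highest of all libraries for Junb, D-3 IR 13 was close to the rest of its group, and D+1 IR 17 to 20 all lay above every D-3 IR library. The log2 fold change of D-3 IR over D+1 IR was -1.01 (SE 0.40), with an adjusted p of 0.417 (edgeR quasi-likelihood test; unadjusted 0.0219).

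Of the zinc finger factors, Egr1, which vessel injury induces, was at 158, 33.0, 84.0, 136 and 91.6 CPM in control 4, 5, 6, 8 and 9. The lowest, median and highest levels were 34.1, 64.8 and 392 CPM in D-3 IR and 40.5, 112 and 357 CPM in D+1 IR. D-3 IR 13 and D+1 IR 17 were the highest, D+1 IR 19 came next at 256 CPM, and the groups overlapped. Egr3 (chr14:70077203-70082614, plus strand), a relative that recognizes the same sites, was at 4.53, 1.54, 5.23, 6.69 and 3.84 CPM in the controls. Levels ran from 2.70 to 18.7 CPM in the D-3 IR libraries (median 3.38) and from 0.973 to 30.5 CPM in those of D+1 IR (median 6.70). Its lowest and highest libraries were both D+1 IR, so that this group spanned the others. For D+1 IR over control the log2 fold change was 0.48 (SE 0.67) for Egr1 and 1.13 (SE 0.73) for Egr3, with adjusted p of 0.861 and 0.655 (edgeR). Without D+1 IR 17 these were 0.055 and 0.48, and for D-3 IR over control Egr1 went from 0.090 to -0.70 and Egr3 from 0.59 to 0.088 without D-3 IR 13.

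Atf3 (chr1:191170296-191218039, minus strand), a stress-induced factor of the CREB family that mostly represses, was at 39.3, 10.5, 7.96, 18.0 and 23.4 CPM in control 4, 5, 6, 8 and 9. In lowest, median and highest order Atf3 was at 5.58, 13.5 and 235 CPM in D-3 IR and 5.98, 13.5 and 390.3 CPM in D+1 IR. The irradiated groups had the same median to this precision and differed in their extremes, with D+1 IR 1, 2 and 3 at 5.98 to 7.76 CPM, below every control, and D+1 IR 17 and 18 above every control. Nr4a1 (chr15:101254269-101274795, plus strand), an orphan nuclear receptor, was at 236, 35.3, 31.2, 64.1 and 45.8 CPM in the controls. The lowest, median and highest levels were 30.1, 49.6 and 713 CPM in D-3 IR and 29.1, 72.5 and 357 CPM in D+1 IR. Each group held at least 1 library far above its others, control 4, D-3 IR 13 and D+1 IR 17. For D-3 IR over control the log2 fold change was 1.27 (SE 1.13) for Atf3 and 0.81 (SE 0.87) for Nr4a1. These became -0.19 and -0.67 without D-3 IR 13. For D+1 IR over control they were 2.08 (SE 1.17) and 0.61 (SE 0.86), and 0.73 and 0.075 without D+1 IR 17.

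Ier2 (chr8:84661331-84662852, minus strand), a nuclear protein of the growth factor response, was the steadiest, at 45.6, 42.1, 56.4, 50.6 and 68.9 CPM in control 4, 5, 6, 8 and 9. The lowest, median and highest levels were 33.6, 43.0 and 88.5 CPM in D-3 IR and 29.7, 57.7 and 141 CPM in D+1 IR, the last in D+1 IR 19. The groups lay on each other, and the largest log2 fold change, -0.45 (SE 0.28) for D-3 IR over D+1 IR, had an adjusted p of 0.509 (edgeR). Dusp1 (chr17:26505590-26562128, minus strand), the phosphatase that inactivates MAP kinases, was at 284, 109, 235, 268 and 259.5 CPM in the controls. Dusp1 ran from 119 to 369 CPM in the D-3 IR libraries (median 144) and from 57.8 to 373 CPM in those of D+1 IR (median 115). Of the 5 controls, 4 lay above 6 of the 7 D-3 IR libraries, and control 5 lay below all of them. Dusp1 was the 1 gene of the 10 with a negative log2 fold change for D+1 IR over control, -0.39 (SE 0.41), and in D-3 IR it was -0.43 (SE 0.41), with adjusted p of 0.784 and 1.00 (edgeR).

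The comparison of the groups asks whether irradiation before or after the start of AngII went with another level of these genes. None of the 10 passed edgeR's test at an adjusted p under 0.05 in any comparison, as did 0% of the 17617 genes tested. At an unadjusted p under 0.05 there were 0 of 10 for D-3 IR over control (1.32% of all genes, 232 genes) and 1 of 10, Fosb, for D+1 IR over control (7.11%, 1253 genes). For D-3 IR over D+1 IR it was 1 of 10, Junb (11.5%, 2018 genes), and in the test for any difference among the groups 1 of 10, Fosb (6.65%, 1171 genes). With DESeq2 the number of genes called was 2 for D+1 IR over control and 10 for D-3 IR over D+1 IR, and with limma voom and sample weights it was 2298 in the latter, without any of the 10 among them. Over the 10 genes the median log2 fold change stood at 0.02 for D-3 IR over control, 0.55 for D+1 IR over control and -0.50 for D-3 IR over D+1 IR, beside -0.03, -0.04 and -0.04 over all genes. The comparisons share groups and are not independent.

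Leaving out 1 library moved these medians, and for the comparison of the irradiated groups and that of D-3 IR with control it could turn their sign. Without D-3 IR 13, all 10 genes were lower in D-3 IR libraries than in those of D+1 IR, with a median log2 fold change of -1.13, and 8 of 10, all but Egr3 and Dusp1, had an unadjusted p under 0.05, against 7.73% of all genes. The value of Fosb was then -3.89 (SE 1.09), and the smallest adjusted p among the 10 was 0.592 (edgeR). Without D+1 IR 17 instead, 6 of the 10 were positive with a median of 0.04, and 0 of 10 had an unadjusted p under 0.05, against 17.9% of all genes. Without both libraries, an alternative chosen after seeing the data, all 10 were negative with a median of -0.80, and Fos, Fosb and Junb, 3 of 10, had an unadjusted p under 0.05, against 12.1% of all genes. Without D+1 IR 1, 2 and 3 the median was -0.87 with 4 of 10 (Fos, Fosb, Junb and Ier2) against 3.51% of all genes, and for D+1 IR over control it was 0.97 with 3 of 10 (Fosb, Egr3 and Atf3) against 1.52%. Without D+1 IR 17 the median for D+1 IR over control was 0.23, with 0 of 10 against 14.9% of all genes. For D-3 IR over control, 9 of 10 were negative without D-3 IR 13, with a median of -0.68. None of the 10 was called under any alternative, and the smallest adjusted p among them was 0.113, for D-3 IR over D+1 IR.

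**Figure D2:**
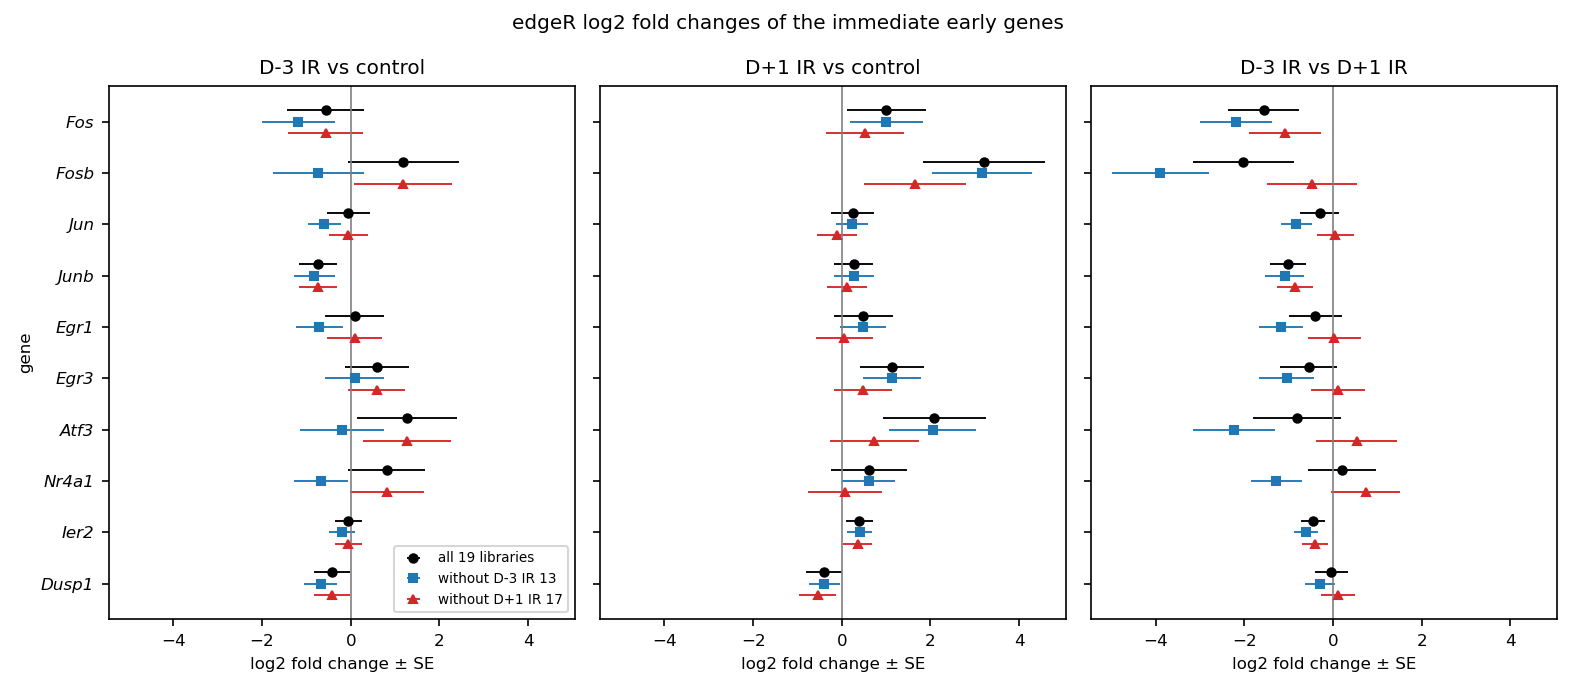
Log2 fold changes from edgeR with standard errors for the 10 genes in each comparison, with all 19 libraries (circles), without D-3 IR 13 (squares) and without D+1 IR 17 (triangles). For D-3 IR over D+1 IR, Fosb is at -2.02 with all libraries, at -3.89 without D-3 IR 13 and at -0.47 without D+1 IR 17.

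Most of the genes differed widely from library to library, also within a group. The highest of the 19 libraries was D+1 IR 17 for Fos, Fosb, Egr3 and Atf3 (4 of 10, against 3.4% of all genes) and D-3 IR 13 for Jun, Egr1 and Nr4a1 (3 of 10, against 5.12%). For Ier2 and Dusp1 it was D+1 IR 19 (2.63% of all genes), and for Junb control 9 (8.29%). In 5 genes, Jun, Egr1, Egr3, Atf3 and Nr4a1, D-3 IR 13 and D+1 IR 17 were the 2 highest, as they were for 0.568% of all genes. Against the median of the other libraries of its group, D-3 IR 13 was higher by more than 1 on the log2 scale in 9 of the 10 genes, where 2.71% of all genes were. The difference had a median of 2.71 over the 10 genes and ran from 0.60 for Junb to 4.48 for Fosb. The same count was 8 of 10 in D+1 IR 17 (17.1% of all genes; median 2.36), 7 of 10 in D+1 IR 19 (4.71%; median 1.38) and 4 of 10 in D+1 IR 18 (7.1%; median 0.69). Among the controls it was 4 of 10 in control 4 (16.7%; median 0.84).

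All 10 genes lay above their median over the 19 libraries in D-3 IR 13, D+1 IR 17 and D+1 IR 19, and 0 of 10 did in control 5, D-3 IR 12 and D-3 IR 16. Among the controls, 8 of 10 did in control 4 and in control 8, and 7 in control 9. The share of all genes above their median was not counted for each library. Against the other libraries of its group, the median log2 difference over all genes was -0.04 in D-3 IR 13. It was 0.07 in D+1 IR 17 and 0.03 in D+1 IR 19. Libraries with most of the genes above their median were thus found in every group, controls included.

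**Figure D3:**
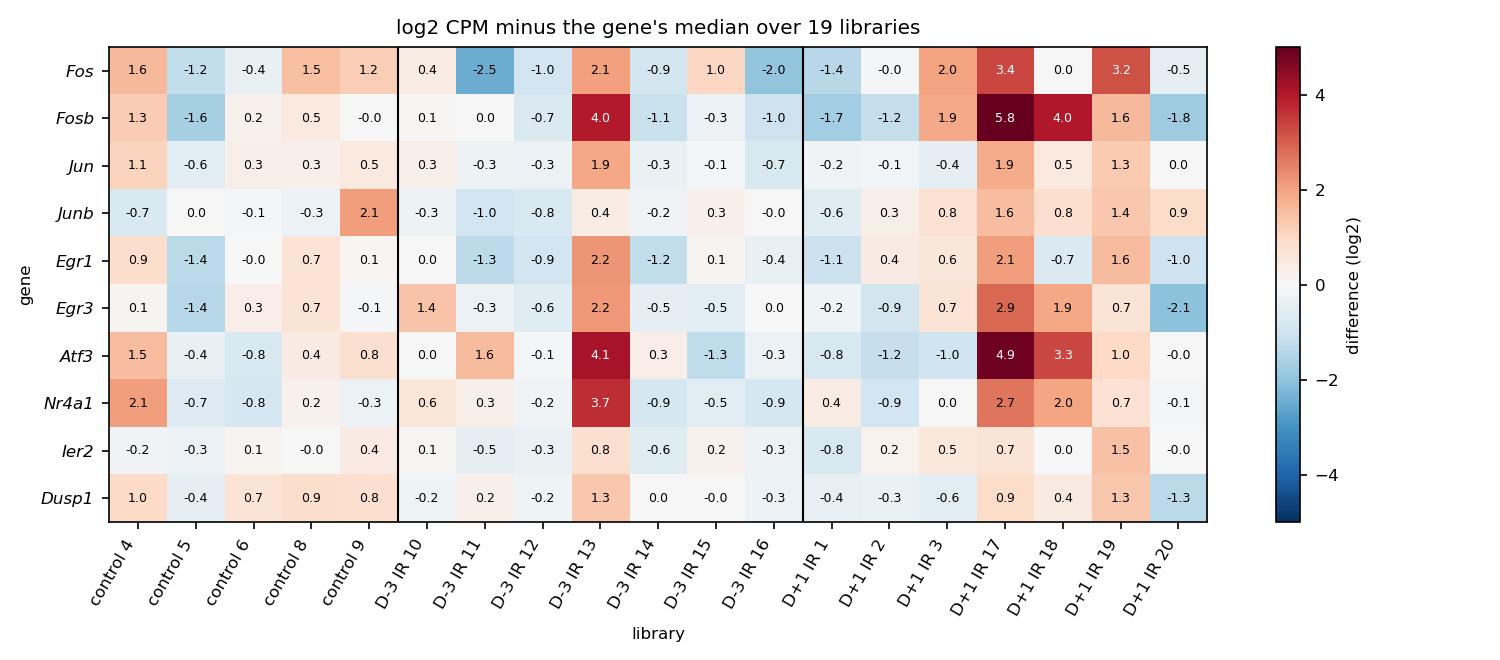
Log2 CPM of each gene minus its own median over the 19 libraries, with libraries in columns (controls, D-3 IR, D+1 IR, separated by lines) and red for higher. The columns of D-3 IR 13, D+1 IR 17 and D+1 IR 19 are above the median in all 10 genes, and those of control 5, D-3 IR 12 and D-3 IR 16 in 0.

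Within groups the spread was widest for Fosb, with a standard deviation of 2.18 in log2 CPM, above 97.0% of all genes tested. Atf3 (1.86, above 95.4%), Fos (1.65, above 93.7%), Nr4a1 (1.37, above 89.2%), Egr3 (1.29, above 87.4%) and Egr1 (1.16, above 83.2%) followed. Jun (0.81), Junb (0.77) and Dusp1 (0.73) were nearer to the median gene at 0.56, and Ier2 (0.54) was below it. Among genes of similar level (10 equal bins by mean log2 CPM), however, the spread of Ier2 was above 75.5%, of Dusp1 above 77.1%, of Jun above 81.1% and of Junb above 88.6%. Without D-3 IR 13 and D+1 IR 17 the spread of Fosb was 1.57, of Fos 1.46 and of Atf3 1.27, still above 92.5%, 90.8% and 86.4% of all genes, whereas that of Jun was 0.54, above 49.0%.

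The 10 genes moved together. Over the 19 libraries, which share their normalization, the 45 pairs had a median Pearson's r of 0.643 (0.178 to 0.896) and a median Spearman's rho of 0.614, and all 45 were positive. With group means removed the median r was 0.684. It was 0.605 without D-3 IR 13, 0.604 without D+1 IR 17, 0.687 without D+1 IR 1, 2 and 3, and 0.497 without D-3 IR 13 and D+1 IR 17, with 43 of 45 pairs positive. Without D+1 IR 18 and 19 as well it was 0.399, with 37 positive. Junb was the least tied to the others, with a median r of 0.417.

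Within this set, 2 blocks stood out after the values were seen. Fos, Egr1 and Ier2 had r of 0.813 to 0.890 among themselves, and 0.783 to 0.879 without D-3 IR 13 and D+1 IR 17. Fosb, Egr3, Atf3 and Nr4a1 had r of 0.726 to 0.896, which became 0.457 to 0.809. Between the blocks the median r was 0.571, and 0.328 without those libraries, where Egr1 and Atf3 went from 0.496 to -0.032. Spearman's rho ran from 0.556 to 0.909 within the blocks and from 0.168 to 0.747 between them, so these ranges overlapped. Jun, in neither block, had r of 0.825 with Egr1 and 0.846 with Nr4a1. Ratios in single libraries restate the values from which the blocks were picked, and so cannot test them. The ratio of Fosb to Fos in CPM per kb was 1.77 in D+1 IR 18 and 0.619 in D+1 IR 17. It was 0.616 in D-3 IR 11 and 0.417 in D-3 IR 13. For D+1 IR 19 it was 0.038, the lowest of all. On the same scale the ratio of Atf3 to Egr1 was 5.56 in D+1 IR 18 and 0.111 in D+1 IR 2. Against the median of the other D+1 IR libraries, D+1 IR 19 was furthest above in Fos (3.21 on the log2 scale), Egr1 (1.75) and Dusp1 (1.73). Ier2 (1.38) and Atf3 (1.37), of different blocks, were raised alike in this library. D+1 IR 18 was furthest above in Fosb (3.76), Atf3 (3.74) and Nr4a1 (1.78) and lay below them in Egr1 (-1.20) and Fos (-0.99).

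**Figure D4:**
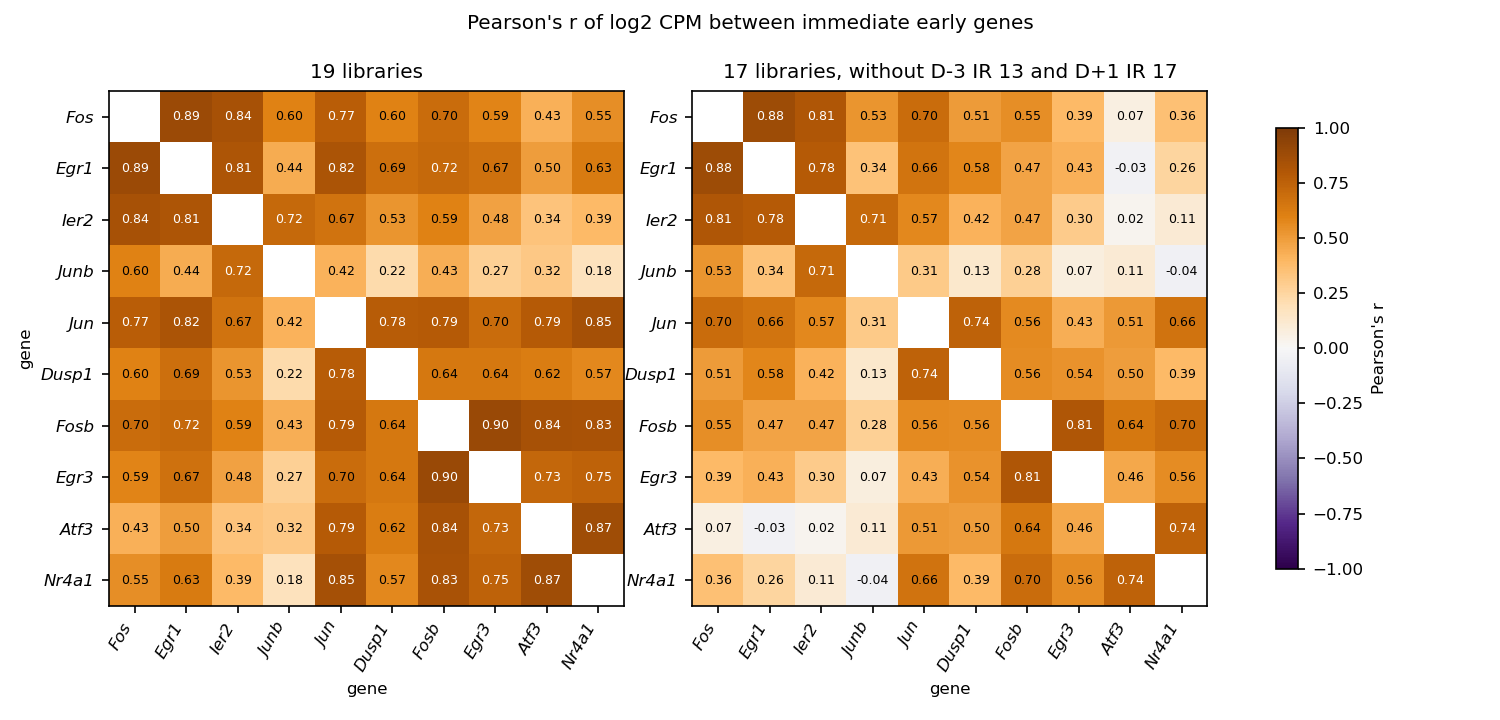
Pearson's r of log2 CPM for each pair of genes, over 19 libraries (left) and over 17 without D-3 IR 13 and D+1 IR 17 (right), with orange for positive r. The left panel has all 45 pairs above 0 with a median of 0.643, and the right has 43 above 0 with a median of 0.497.

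To see how far the genes went with signs of tissue handling, the mean of their standardized log2 CPM was set beside other measures of the same libraries, as a description. Heat shock genes, which answer to warmth and misfolded protein, varied with it (16 genes; r = 0.662, rho = 0.560, and r = 0.508 without D-3 IR 13 and D+1 IR 17, 0.434 without the 2 libraries farthest on that measure, 0.689 with group means removed and 0.718 without D+1 IR 1, 2 and 3). Single genes differed in this, with r from 0.376 (Junb) to 0.786 (Atf3) over all libraries. Without D-3 IR 13 and D+1 IR 17, r was 0.727 for Atf3, 0.674 for Dusp1, 0.501 for Fosb and 0.457 for Jun. It was 0.371 for Egr3, 0.292 for Nr4a1, 0.245 for Ier2, 0.177 for Junb, 0.120 for Fos and 0.064 for Egr1. The means of lists with other roles had values similar to that of the heat shock mean. For 24 upstream kinases and factors r was 0.659 and rho 0.721 (r = 0.541 without D-3 IR 13 and D+1 IR 17). For 20 feedback regulators and partners r was 0.648 and rho 0.502 (r = 0.402 without those libraries). For 48 other primary response genes r was 0.682 and rho 0.437 (r = 0.440). Taken gene by gene, the median r was 0.590 for heat shock and 0.428 for other primary response genes. It was 0.253 for the upstream list and 0.289 for the feedback list. Without those 2 libraries these medians were 0.462, 0.287, 0.183 and 0.199. The chaperone Hspa1a was at 1379 CPM in D+1 IR 17, 403 in D+1 IR 18, 138 in D-3 IR 11, 114 in D-3 IR 13 and 112 CPM for D+1 IR 19, beside a median of 32.3 and a low of 3.77 (D+1 IR 3). D-3 IR 13, highest in Jun, Egr1 and Nr4a1, ranked 4th in Hspa1a and 5th in the mean of the 16 heat shock genes. In Dnajb1 it ranked 7th, at 78.4 CPM beside a median of 53.3.

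The share of counts in mitochondrial genes varied weakly against the mean of the 10 genes (r = -0.327, rho = -0.323), and r was -0.080 without D-3 IR 13 and D+1 IR 17. The share of reads in genes had r = 0.492 (rho = 0.512; 0.362 without those libraries) and depth on the log2 scale r = -0.119 (rho = -0.277). Hypoxia genes had r = 0.042, glucocorticoid response genes 0.034 and clock genes, which follow the time of day, 0.072, and without those libraries the values were 0.251, 0.238 and 0.051. Among cell type markers, smooth muscle had r = 0.201, or 0.455 with group means removed. Taken singly, Dusp1 had r = 0.559 with the smooth muscle markers (0.514 without those libraries), the highest of the 10 genes, and rho = 0.367. The libraries farthest on the smooth muscle measure, D+1 IR 3 and 20, were at 97.8 and 57.8 CPM in Dusp1. With the heat shock mean Dusp1 had r = 0.659 and rho = 0.781. For the mean of the 10 genes, values smaller than for smooth muscle were those of fibroblasts (0.178), endothelium (-0.002), macrophages (-0.154), neutrophils (0.004) and T cells (-0.133). The same held for white fat (-0.131), brown fat (-0.096), skeletal muscle (-0.117) and Schwann cells (0.198). Markers of sympathetic neurons and adrenal cells had r = 0.358 and rho = 0.461, and the erythroid markers r = -0.339 and rho = -0.456. Without D-3 IR 13 and D+1 IR 17 the rho values were 0.451 and -0.466. Handling, RNA quality and tissue makeup as sources of the differences between libraries were not tested, and no time from death to freezing was given per library.

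**Figure D5:**
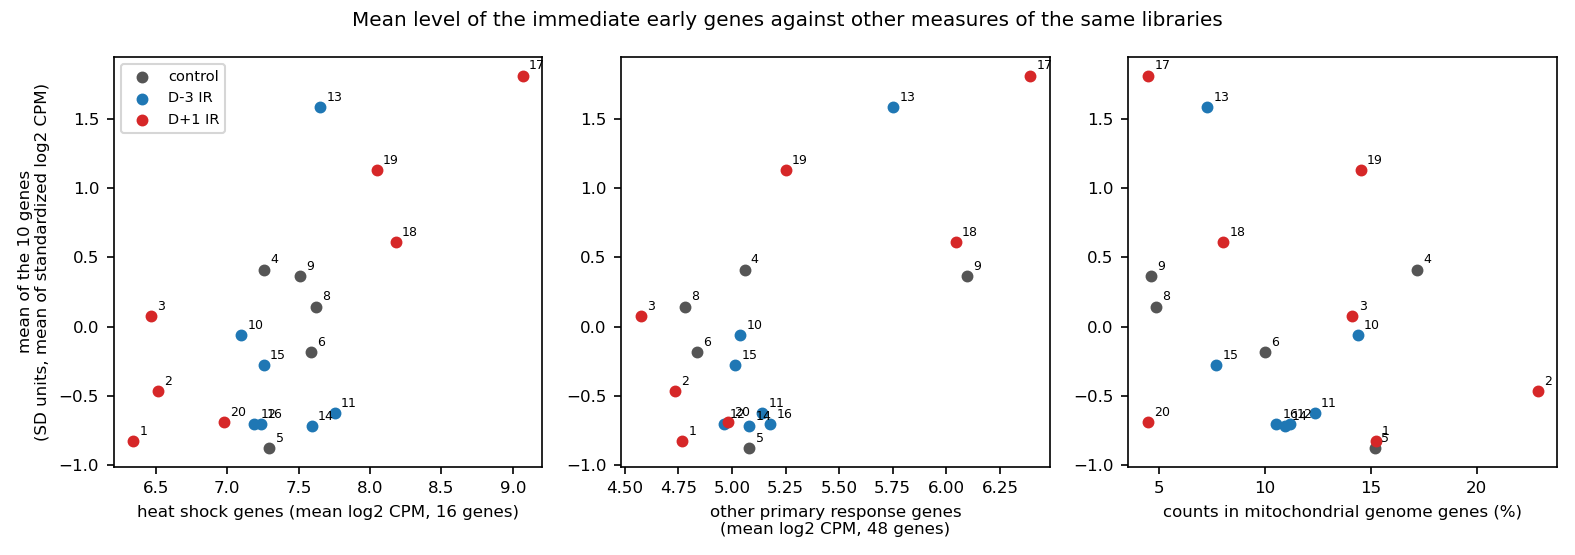
Mean of the standardized log2 CPM of the 10 genes (SD units) against the mean log2 CPM of 16 heat shock genes, that of 48 other primary response genes and the share of counts in mitochondrial genes (%), with 1 numbered point per library, coloured by group. The mean of the 10 genes goes with heat shock (r = 0.662) and other primary response genes (r = 0.682) more than with the mitochondrial share (r = -0.327).

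The genes most like the 10 over the 19 libraries, by r with their mean, were Btg2 (0.870), Zfp36 (0.810), Errfi1 (0.809), Egr2 (0.805), Cyr61 (0.795), Ppp1r15a (0.791), Spry2 (0.790), Arc (0.770), Cyp51 (0.742) and Nop14 (0.734). Btg2, which slows the cell cycle, was at 455 CPM in D-3 IR 13, 190 CPM in D+1 IR 19 and 128 CPM for D+1 IR 17, beside a median of 52.0. Cyr61, a matrix protein also called Ccn1, was at 1919 CPM in D-3 IR 13 and 1132 CPM for D+1 IR 17, beside a median of 285. Without D-3 IR 13 the first 10 were Btg2 (0.851), Zfp36 (0.840), Ppp1r15a (0.797), Errfi1 (0.773), Dnajb1 (0.772), Egr2 (0.759), Bag3 (0.756), Hsd17b7 (0.748), Fbxl14 (0.744) and Cyp51 (0.741). Over 19 libraries 27 of all genes (0.153%) had r over 0.7, including 9 of the 10 genes themselves, which are part of the mean, and 8 of 48 other primary response genes. Without D-3 IR 13 and D+1 IR 17 it was 8 of all genes (0.0454%), with 6 of the 10 and 2 of the 48 among them. Btg2 (0.853) and Zfp36 (0.781) were then still above 0.7. Lower values were those of Egr2 (0.666), Ppp1r15a (0.661), Cyp51 (0.656), Errfi1 (0.644), Cyr61 (0.598), Nop14 (0.586), Spry2 (0.558) and Arc (0.528).

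Other genes of the response were read from lists by role, and none was called at an adjusted p under 0.05 in edgeR. Of 48 other primary response genes, 2 were lower (Plk3, -1.10, and Pim1, -0.87) at an unadjusted p under 0.05 for D-3 IR over control, beside 1.32% of all genes in either direction, with a median log2 fold change of -0.04. For D+1 IR over control 1 was higher (Nr4a3, 1.84; median 0.17), beside 7.11% of all genes, and for D-3 IR over D+1 IR 9 were lower, among them Myc (-1.56), Tiparp (-0.98), Bhlhe40 (-0.82) and Gadd45g (-0.58; median -0.24), beside 11.5% of all genes. Of 16 heat shock genes, 0 had an unadjusted p under 0.05 against control in either irradiated group, and 3 were lower in D-3 IR libraries than in those of D+1 IR, Hspa1b (-2.37), Dnajb1 (-1.20) and Hspd1 (-0.55), with a median of -0.23, beside the same 11.5%. Of 24 kinases and factors that start the response, 1 was lower in D-3 IR (Map2k1, -0.44) and 1 higher in D+1 IR (Mapkapk2, 0.41) against control, beside 1.32% and 7.11% of all genes, and of 20 feedback regulators and partners 0 had an unadjusted p under 0.05 in any comparison.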

How the data were processed

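Aortic RNA was selected for polyA, and libraries were made with a stranded kit. The authors checked reads with FastQC, mapped them to GRCm38 with STAR 2.7.9a and deposited raw counts per gene, 1 file per library, and a joined count table. All 773262 joined values equalled the counts in the files of single libraries. The unstranded counts were used, and gene models were those of GENCODE M21.

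Genes were filtered with filterByExpr (17617 kept, all 10 members among them), scaled with TMM factors and tested with the quasi-likelihood F-test of edgeR 4.0.16 (R 4.3.3), two-sided, in a fit over all 19 libraries and 3 groups without intercept, as in the study. P-values were adjusted by Benjamini-Hochberg over all genes. Standard errors are the log2 fold change divided by the square root of F. Log2 CPM used a prior count of 2. Correlations are printed without p, as descriptions, since the members were chosen together. Alternatives used DESeq2 1.42.0, limma 3.58.1, other scaling factors and filters, and left out libraries. Scripts were tested on simulated data.

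The members and lists were chosen with earlier results of these data known. The genes named were all members, up to 4 genes per pathway list with the smallest p in a comparison, and the 10 genes most like the members' mean with and without D-3 IR 13. Cell type markers served only to describe the libraries. Values of D+1 IR 18 and 19, ratios, blocks, single heat shock genes and Dusp1 beside smooth muscle markers were singled out after seeing the data. Figures were drawn with matplotlib 3.10.9. With 25839001 or more counts in genes in each library, counting error is small beside the spread between libraries.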

Additional observations from a re-analysis of the deposited data

Results flagged for a closer look

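In 7 of 30 groups of values, each a gene in a group of libraries, the highest or lowest library lay apart from the nearest other by more than Dixon's 95% limit. Chance flags about 1 in 20 groups, and the genes move together, so these are not separate events. D-3 IR 13 stood above the other D-3 IR libraries in log2 CPM for Fosb (7.26), Jun (8.79), Egr1 (8.62), Nr4a1 (9.48) and Dusp1 (8.53). Control 9 stood above the other controls for Junb (8.16), and control 5 below them for Dusp1 (6.77). Handling of these aortas was not tested as a source.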

How the results depend on the processing

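With other tools, filters, scaling factors or the D+1 IR file series left out, 387 of 390 fold changes of the members kept their sign, and no member was called under any alternative. For D-3 IR over D+1 IR, limma voom with sample quality weights gave 0.16 for Atf3 and -0.17 for Nr4a1, and leaving out D+1 IR 1, 2 and 3 gave -0.30 for Nr4a1. The number of genes called was 2 (D+1 IR over control), 10 (D-3 IR over D+1 IR) and 23 (any difference) with DESeq2, 2298 (D-3 IR over D+1 IR) with limma voom and 1 (any difference) with the newer quasi-likelihood method of edgeR, against 0 otherwise; the cause was not tested.

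Without D-3 IR 13 and D+1 IR 17 together, chosen after seeing the data, the signs turned for D-3 IR over control for Fosb (-0.73), Egr1 (-0.70), Atf3 (-0.19) and Nr4a1 (-0.67), for D+1 IR over control for Jun (-0.079) and for D-3 IR over D+1 IR for Nr4a1 (-0.80). Without D+1 IR 18 and 19 as well, the median correlation was 0.399. Leaving out 1 library at a time gave 0 genes called in each comparison. The median log2 fold change of the members then ran from -0.68 to 0.25 for D-3 IR over control, from 0.23 to 0.93 for D+1 IR over control and from -1.13 to 0.04 for D-3 IR over D+1 IR, and the median correlation from 0.604 to 0.692. With 1 library left out at a time, 29 of 570 member fold changes turned sign, and these genes ran over the ranges given. The ranges were for D-3 IR over control Fosb (-0.73 to 1.57), Jun (-0.60 to 0.19), Junb (-0.95 to 0.11), Egr1 (-0.70 to 0.31), Atf3 (-0.19 to 1.68), Ier2 (-0.20 to 0.065) and Nr4a1 (-0.67 to 1.72). They were for D+1 IR over control Jun (-0.11 to 0.49). They were for D-3 IR over D+1 IR Jun (-0.83 to 0.054), Egr1 (-1.18 to 0.035), Egr3 (-1.04 to 0.11), Atf3 (-2.24 to 0.54), Nr4a1 (-1.28 to 0.74) and Dusp1 (-0.28 to 0.27). No label pairs libraries across the groups, so the comparisons were unpaired. With 5 to 7 libraries a group and this spread, small differences in these genes were not detectable.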
